A study of Mus musculus with 3 samples.

Results

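The genes described here are 54 genes of DNA replication and S phase, measured in C2C12 cells, a mouse line of mesenchymal precursors with the character of myoblasts that can be turned towards muscle or bone. They were chosen by name and sorted into 4 roles: licensing of origins and the helicase (17 genes), polymerases, clamp loader and fork processing (19 genes), nucleotide supply (5 genes), and S-phase regulators with chromatin assembly (13 genes). All 54 were found among the 22706 genes of the deposited files, and 53 reached the level needed for a comparison, as did 11462 genes in all. The exception was Rfc4, a subunit of the clamp loader, which was listed at 0 in all 3 libraries.

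The study holds 3 RNA-seq libraries of polyadenylated RNA, with 1 library in each group. Cells of the library labelled shKSRP carried a short hairpin RNA against KSRP, an RNA-binding protein that speeds the decay of mRNAs with AU-rich elements, and grew in growth medium with 20% fetal bovine serum. Cells of the BMP2 library were mock-transfected, received BMP2, a growth factor under which this line takes on osteoblast features, and are labelled as kept in differentiation medium, for which the protocol gives 2% horse serum and, for BMP2, 100 to 300 ng/ml. Cells of the mock library were mock-transfected and grew in the same growth medium as the cells labelled shKSRP. All 3 libraries are thus of transfected cells of a single line. The BMP2 library differs from the mock library at least in medium, serum and BMP2, and the parts of these 3 changes cannot be told apart. Names of its assembled transcripts carry mock_1d, where those of the other libraries carry mock_GM and shKSRP_GM. If 1d gives a time in culture, its part cannot be told apart either.

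Levels are given as FPKM, the number of fragments per kilobase of transcript relative to the depth of the library, followed by the half-width of the deposited 95% interval, which covers counting and assignment error within a library and not the spread between cultures. A difference is a log2 ratio of FPKM + 1, and a gene was called lower or higher at a ratio of 1 or more in size, that is 2-fold. This is a fixed rule of size and not a test: with 1 library per group there is no replicate check and no p-value. A gene can be listed at exactly 0 in one library and be abundant in another, and no ratio is given against a 0.

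The Khsrp gene, which encodes KSRP, stood at 28.4 ± 0.640 FPKM in the library labelled shKSRP, 27.1 ± 0.666 FPKM in the BMP2 library and 31.4 ± 0.852 FPKM in the mock library. The level in the library labelled shKSRP was thus 90.6% of the mock level, so the label is kept here as a label. The intervals correspond to 68.5, 60.4 and 62.1 M (mega) fragments in the library labelled shKSRP, the BMP2 library and the mock library. Of the 6 myoblast markers, Myod1 (34.8, 17.3 and 30.7 FPKM in the same order), Des (185, 218 and 280 FPKM) and Myog (6.52, 11.3 and 9.54 FPKM) were called in neither comparison with mock. Myf5 (48.4, 9.09 and 7.75 FPKM) and Pax7 (2.90, 0.463 and 0.118 FPKM) were called higher in the library labelled shKSRP, and Cdh15 (31.1, 5.02 and 38.3 FPKM) lower in the BMP2 library. The 4 matched blood markers were at 0.00598 FPKM or less and the 5 endothelial markers at 0.0622 FPKM or less in every library, and summed over its markers neither list passed 0.123 FPKM. Of the 6 epithelial markers, 5 were at 0.317 FPKM or less, while Krt14, whose locus is shared with another gene, had 18.4, 264 and 114 FPKM. The neural marker Map2 reached 1.02 FPKM in the library labelled shKSRP and the adipocyte marker Fabp4 reached 5.10 FPKM in the BMP2 library. Their part in the results below was not tested.

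As background, replication begins when the origin recognition complex, Cdc6 and Cdt1 load a ring of MCM proteins onto DNA, which Cdc45 and the GINS complex turn into the active helicase. DNA polymerase alpha with primase then starts each strand, the clamp loader RFC places the sliding clamp PCNA, and polymerases delta and epsilon extend the chain. Many of these genes are transcribed under E2F factors as cells pass from G1 into S phase, and they are low in cells that have left the cycle, as myoblasts do when they differentiate.

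E2F factors bind a short DNA element, and the starts of these genes were therefore searched for its usual letters. The sequences are windows of RefSeq on the GRCm38.p6 build, from 250 bases before to 50 bases after the gene's start, and 45 of the 54 genes had at least 1. A gene with several starts has several windows, and it was counted as holding a motif where any of them did. Printed below 5′ to 3′ are, for each role with a match, the gene with the highest mock level among those that hold a match and were called lower in both other libraries, which gave Mcm6, Lig1 and Uhrf1. Lig1 has 3 windows and Uhrf1 has 2, of which only the one printed holds a match, and which start the fragments come from was not tested. No gene of nucleotide supply held a match. Capitals mark TTTCGCGC, TTTGGCGC or TTTCCCGC on either strand, and in Mcm6 a pair of matches overlaps in 1 run of capitals.
Mcm6 (chr1:128359656-128359955, minus strand): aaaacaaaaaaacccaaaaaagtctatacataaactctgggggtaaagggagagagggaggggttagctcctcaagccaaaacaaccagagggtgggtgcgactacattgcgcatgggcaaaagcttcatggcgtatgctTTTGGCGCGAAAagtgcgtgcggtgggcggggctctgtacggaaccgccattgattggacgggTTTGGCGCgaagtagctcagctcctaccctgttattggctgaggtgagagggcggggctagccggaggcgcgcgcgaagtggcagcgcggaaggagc
Lig1 (chr7:13278576-13278875, plus strand): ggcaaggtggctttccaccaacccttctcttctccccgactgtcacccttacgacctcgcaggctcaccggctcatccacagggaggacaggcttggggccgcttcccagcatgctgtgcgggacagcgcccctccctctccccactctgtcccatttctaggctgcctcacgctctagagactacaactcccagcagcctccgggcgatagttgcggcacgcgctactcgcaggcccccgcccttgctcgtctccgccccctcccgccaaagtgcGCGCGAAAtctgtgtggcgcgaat
Uhrf1 (chr17:56304063-56304362, plus strand): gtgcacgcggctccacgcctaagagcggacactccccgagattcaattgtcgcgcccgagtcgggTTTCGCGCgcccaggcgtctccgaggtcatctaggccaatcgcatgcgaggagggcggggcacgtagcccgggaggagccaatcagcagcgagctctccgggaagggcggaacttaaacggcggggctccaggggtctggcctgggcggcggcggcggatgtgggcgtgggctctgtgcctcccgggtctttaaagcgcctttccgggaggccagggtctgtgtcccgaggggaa

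Any of the 3 motifs was found in 17 of the 45 genes with a window, or 37.8%, against 573 of 27025 RefSeq genes (2.12%) and 393 of 9060 compared genes that have a window (4.34%). The 17 were Cdc6, Cdk2, Cdt1, Dnmt1, Gins3, Lig1, Mcm3, Mcm5, Mcm6, Mcm7, Orc1, Pola1, Pold1, Pole2, Rfc3, Topbp1 and Uhrf1. The letters CCAAT, the element bound by the factor NF-Y, stood on either strand in 27 of the 45 genes (60.0%), against 41.1% of all genes with a window and 43.6% of the compared ones. The letters TTTGAA, the core of the element known as CHR, stood in 8 of the 45 (17.8%), against 20.2% of all genes with a window and 14.2% of the compared ones. Genes with and without the E2F letters were called lower in both libraries. Of the 17 with the letters, 13 were called lower in the library labelled shKSRP and 14 were in the BMP2 library, with median log2 ratios to mock of -1.25 and -1.28. Of the 27 compared genes without them, 22 and 21 were called lower, with medians of -1.61 and -1.45. Over all compared genes 12.9% and 8.94% were called lower. The share among all compared genes that hold the letters was not computed. A match is only a match of letters, and its absence says only that the letters are not in the window.

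Most of the replication genes were lower than mock in both other libraries, and none was called higher. In the library labelled shKSRP 42 of the 53 compared genes were called lower, against 12.9% of all compared genes that were lower and 11.0% that were higher. Their median log2 ratio was -1.44, against -0.02 over all genes. In the BMP2 library 41 of 53 were called lower, against 8.94% of all genes lower and 9.21% higher, with a median of -1.40 against 0.03. Both comparisons share the mock library. A set of 39 genes was called lower in both, against 6.0% of all compared genes. The 42 calls include 2 genes listed at 0 in the library labelled shKSRP, Pold2 and Ccne2, and the 41 include 4 listed at 0 in the BMP2 library, these 2 with Cdc45 and Orc1.

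**Figure D1:**
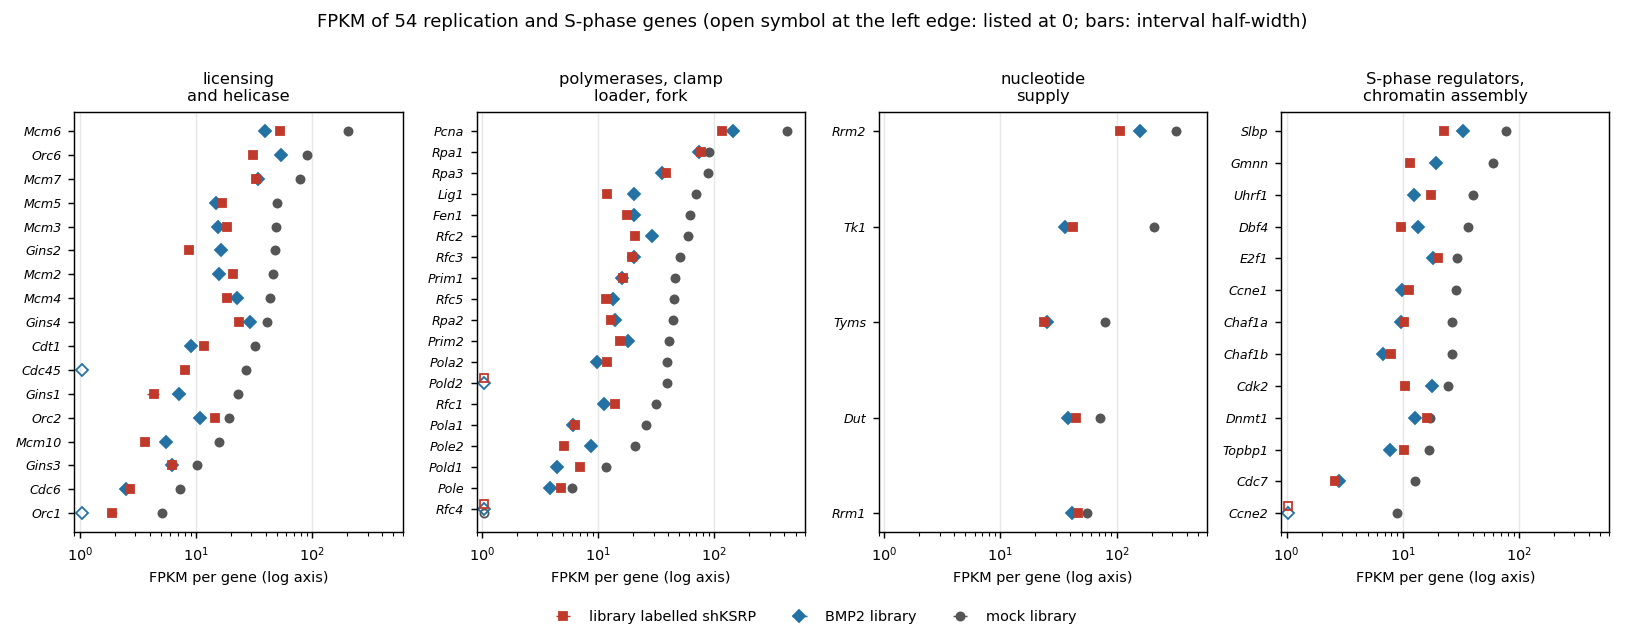
FPKM of the 54 genes by role on a log axis, with squares for the library labelled shKSRP, diamonds for the BMP2 library and circles for the mock library; bars are interval half-widths, mostly smaller than the symbols, and open symbols at the left edge mark genes listed at 0. Nearly every gene has its circle to the right of its square and diamond, with Rpa1, Rrm1, Pole and Dnmt1 among the closest sets.

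Summed over the 54 genes, FPKM came to 1097 in the library labelled shKSRP, 1196 in the BMP2 library and 3123 in the mock library. That is 0.206%, 0.212% and 0.461% of the FPKM of all genes. The sum of FPKM over all genes itself differed, at 533262 in the library labelled shKSRP, 564500 in the BMP2 library and 677872 in the mock library. When the libraries were scaled to the same sum, 31 genes stayed past 2-fold in the library labelled shKSRP, with 33 in the BMP2 library, against 8.24% and 6.39% of all compared genes that were lower. The median of all genes then moved to 0.27 and 0.26. The 20 reference genes, chosen as housekeeping genes, had medians of -0.36 and -0.28 against mock on the unscaled values, and none of them was called in either comparison. Since whole cultures were sampled, fewer cells in S phase and less RNA of these genes per cell cannot be told apart.

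Licensing and helicase genes were lower in 14 of 17 cases in the library labelled shKSRP (median log2 ratio to mock -1.34). In the BMP2 library 12 of 17 were lower (median -1.49). Over all compared genes the shares called lower were 12.9% and 8.94%. The MCM subunits, which form the ring of the helicase, all lay below mock in both libraries. Mcm7 stood at 32.6 ± 0.900 FPKM in the library labelled shKSRP, 34.0 ± 0.977 FPKM in the BMP2 library and 79.1 ± 1.47 FPKM in the mock library, with ratios to mock of -1.25 and -1.19. Mcm3 had 18.6, 15.6 and 48.8 FPKM in the same order, with ratios of -1.34 and -1.59. Both rest on RefSeq transcripts alone in all 3 libraries, so no assembled transcript enters these values. Mcm5 had 16.7, 14.9 and 49.5 FPKM (ratios of -1.51 and -1.67). Mcm2 had 21.0, 15.8 and 46.2 FPKM (ratios of -1.10 and -1.49). Mcm4, at 18.4, 22.4 and 43.2 FPKM, was called in the library labelled shKSRP at -1.19 and missed the call in the BMP2 library at -0.92.

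Mcm6 had the highest mock level of the MCM genes, and much of it sat on an assembled fragment of the gene. Its level was 53.3 ± 1.16 FPKM in the library labelled shKSRP, 39.7 ± 0.952 FPKM in the BMP2 library and 205 ± 5.31 FPKM in the mock library, with ratios to mock of -1.92 ± 0.05 and -2.34 ± 0.05. Of the 205 FPKM in mock, 131 belonged to an assembled transcript of 582 nt and 3 exons at the 3′ end of the gene (chr1:130228161-130231314 in mm9, minus strand), and 73.9 to the RefSeq transcript of 2901 nt (chr1:130228168-130256233). In the library labelled shKSRP 17.8 FPKM sat on an assembled transcript of 4464 nt and 32 exons that ran past the 5′ end of the gene, and the BMP2 library had the RefSeq transcript alone. On the RefSeq transcript the ratios were -1.04 and -0.88, and with the fragments counted over a fixed gene length they were -0.66 and -1.32. The size of the Mcm6 difference thus depended on how the fragments were assigned, and its direction did not under these definitions. Mcm6 also shares its locus with another gene.

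**Figure D2:**
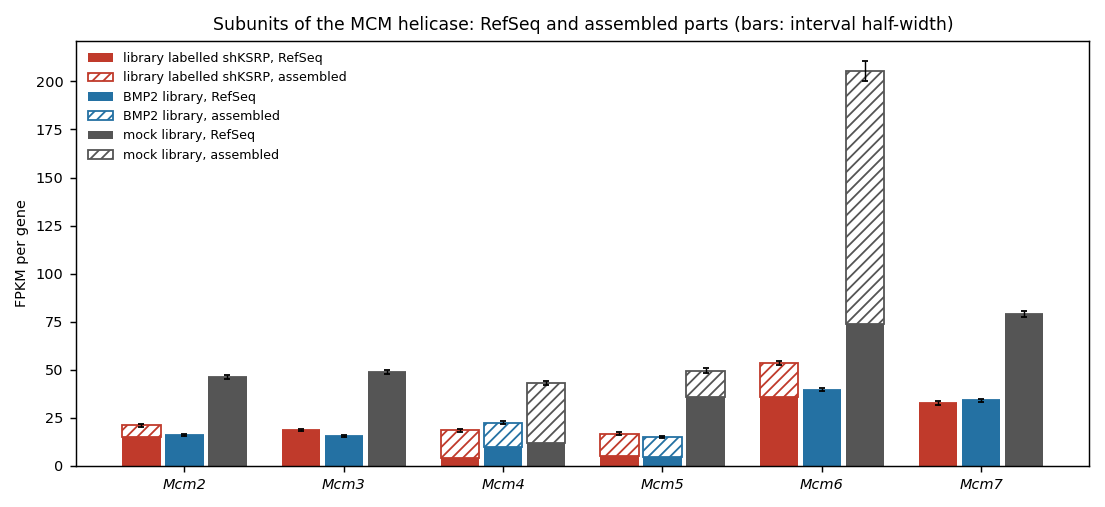
FPKM of the subunits of the MCM helicase, with bars for the library labelled shKSRP, the BMP2 library and the mock library from left to right; filled parts are RefSeq transcripts, hatched parts assembled transcripts, and error bars the interval half-width of the gene. The mock bar is the tallest of each set, and the mock bar of Mcm6 reaches 205 FPKM through a hatched part of 131 FPKM.

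The GINS subunits, which hold the helicase together with Cdc45, split into a pair with the largest differences of this role in the library labelled shKSRP and a pair that was not called. Gins2 stood at 8.74 ± 0.417 FPKM in the library labelled shKSRP, 16.5 ± 0.59 FPKM in the BMP2 library and 48.1 ± 1.78 FPKM in the mock library, with ratios to mock of -2.33 ± 0.08 and -1.49 ± 0.07. Gins1 had 4.32 ± 0.511, 7.14 ± 0.856 and 23.0 ± 1.23 FPKM, with ratios of -2.17 ± 0.16 and -1.56 ± 0.17. In contrast, Gins3 (6.27, 6.20 and 10.3 FPKM) and Gins4 (23.5, 29.0 and 40.9 FPKM) were called in neither library. Their ratios were -0.63 and -0.65 for Gins3, and -0.77 and -0.48 for Gins4. Gins3 reached -1.60 in the BMP2 library when only RefSeq transcripts were counted. In Gins2 the values of the library labelled shKSRP and of the BMP2 library come wholly from assembled transcripts, its RefSeq transcript being listed at 0 in both. These transcripts of 3852 and 3657 nt ran past the gene, whose RefSeq transcript has 1038 nt. In mock 36.8 FPKM sat on the RefSeq transcript and 11.3 FPKM on an assembled transcript of 3350 nt that also ran past the gene. Over a fixed gene length the Gins2 ratio was -1.15 in the library labelled shKSRP, with -0.33 in the BMP2 library, which ends the BMP2 call.

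Cdc45, the partner of GINS, had 8.06 ± 0.615 FPKM in the library labelled shKSRP and 26.8 ± 1.16 FPKM in the mock library (ratio -1.62 ± 0.12), and was listed at 0 in the BMP2 library. On RefSeq transcripts alone its ratio in the library labelled shKSRP was -0.82, short of the call. The origin recognition complex did not move as 1 unit. Orc6, a small subunit of the complex, had 30.7 ± 1.07, 54.1 ± 1.51 and 90.7 ± 1.93 FPKM in the library labelled shKSRP, the BMP2 library and the mock library, with ratios to mock of -1.53 and -0.73. Orc1, the large ATPase subunit, had 1.91 ± 0.199 FPKM in the library labelled shKSRP and 5.11 ± 0.331 FPKM in mock (ratio -1.07 ± 0.13), and was listed at 0 in the BMP2 library. Orc2, a core subunit, had 14.5, 10.7 and 19.4 FPKM and was called in neither library, with ratios of -0.40 ± 0.06 and -0.80 ± 0.07. The MCM loaders Cdc6 (2.73, 2.48 and 7.25 FPKM, ratios of -1.15 and -1.25) and Cdt1 (11.8, 9.05 and 32.2 FPKM, ratios of -1.38 and -1.72) were called lower in both. So was Mcm10, which helps the helicase start, at 3.68, 5.47 and 15.7 FPKM with ratios of -1.84 and -1.37. On RefSeq transcripts alone Mcm10 missed the call, at -0.33 and -0.63.

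Polymerase, clamp loader and fork genes were lower in 15 of 18 compared cases in the library labelled shKSRP (median -1.56). In the BMP2 library 16 of 18 were lower (median -1.42), and the shares over all compared genes were 12.9% and 8.94%. Pcna, the sliding clamp and the most abundant of the 54 genes in mock, stood at 117 ± 2.44 FPKM in the library labelled shKSRP, 145 ± 2.88 FPKM in the BMP2 library and 422 ± 4.85 FPKM in the mock library. These are 27.7% and 34.4% of the mock level, with ratios of -1.84 ± 0.03 and -1.53 ± 0.03, and no assembled transcript enters them. Like Mcm6, Pcna shares its locus with another gene, as do Rfc3, Prim2, E2f1 and Cdk2. The clamp loader RFC opens PCNA and closes it around DNA. Its large subunit Rfc1 had 13.9, 11.3 and 31.5 FPKM in the library labelled shKSRP, the BMP2 library and the mock library (ratios of -1.12 and -1.40). Its small subunits Rfc2 (20.8, 28.9 and 59.3 FPKM), Rfc3 (19.4, 20.2 and 50.5 FPKM) and Rfc5 (11.6, 13.4 and 45.2 FPKM) were called lower in both. Of these, Rfc5 differed most, at -1.87 ± 0.08 and -1.68 ± 0.08, against -1.47 and -1.01 for Rfc2 and -1.34 and -1.28 for Rfc3. The remaining small subunit, Rfc4, overlaps Eif4a2 over 160 nt of exons on the opposite strand, and Eif4a2, an abundant translation factor, had 118, 167 and 165 FPKM.

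Polymerase alpha and primase, which lay down the first stretch of each strand, were called lower in all 4 subunits in both libraries. Pola1, the catalytic subunit of the polymerase, had 6.33 ± 0.260 FPKM in the library labelled shKSRP, 6.04 ± 0.577 FPKM in the BMP2 library and 25.7 ± 1.32 FPKM in the mock library (ratios of -1.86 ± 0.09 and -1.92 ± 0.14). Its partner Pola2 had 11.9, 9.69 and 39.2 FPKM, with ratios of -1.64 and -1.91. In mock 21.4 FPKM of Pola2 sat on an assembled transcript of 840 nt. Its ratios were -1.02 and -1.485 on RefSeq transcripts alone, and -1.03 and -1.39 over a fixed gene length. The primase subunits were close to each other: Prim1 had 16.3, 16.1 and 45.7 FPKM (ratios of -1.44 and -1.45) and Prim2 had 15.4, 18.1 and 40.8 FPKM (ratios of -1.35 and -1.13). Of the Pola1 level in mock, 21.9 FPKM sat on assembled transcripts. Over a fixed gene length Prim2 missed the call in both libraries (-0.80 and -0.86), and on RefSeq transcripts alone it did so in the library labelled shKSRP (-0.50). On the RefSeq transcript alone, Pola1 was higher in the library labelled shKSRP than in mock, with a ratio of 0.62, and Rfc1 likewise turned to 0.40. Over a fixed gene length the same ratios were -0.55 for Pola1 and -0.25 for Rfc1, neither past 2-fold. In the BMP2 library the RefSeq transcript alone gave -0.31 for Pola1 and -0.12 for Rfc1, and a fixed gene length -1.24 and -0.52. The direction of Pola1 and Rfc1 in the library labelled shKSRP therefore rests on the assembled transcripts.

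The catalytic subunits of the replicative polymerases epsilon and delta both missed the call in the library labelled shKSRP. Pole, the catalytic subunit of epsilon, had 4.74 ± 0.462, 3.86 ± 0.375 and 5.97 ± 0.228 FPKM in the library labelled shKSRP, the BMP2 library and the mock library and was called in neither (ratios of -0.28 ± 0.13 and -0.52 ± 0.12). Its second subunit Pole2 had 5.11 ± 0.431, 8.73 ± 0.598 and 20.7 ± 0.908 FPKM, with ratios of -1.83 and -1.16. On RefSeq transcripts alone Pole too passed 2-fold, at -1.10 and -1.51. Pold1, the catalytic subunit of delta, had 6.97, 4.45 and 11.6 FPKM. It missed the call in the library labelled shKSRP (-0.67 ± 0.08) and passed it in the BMP2 library (-1.21 ± 0.09). Its second subunit Pold2 was listed at 0 in both of these libraries and stood at 38.9 ± 1.28 FPKM in mock. Pold2 overlaps Aebp1 over 46 nt of exons on the opposite strand, and Aebp1 had 468, 392 and 105 FPKM.

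At the lagging strand, Fen1, the flap endonuclease, had 17.6, 20.2 and 61.5 FPKM in the library labelled shKSRP, the BMP2 library and the mock library (ratios of -1.75 and -1.56). The BMP2 ratio of Fen1 was -0.69, short of the call, on RefSeq transcripts alone. Lig1, the ligase that seals Okazaki fragments, had 11.8 ± 0.472, 20.4 ± 1.41 and 69.1 ± 2.11 FPKM, with ratios of -2.45 ± 0.07 and -1.71 ± 0.10. The shKSRP-labelled ratio of Lig1 was the lowest of all genes of this role above 0. In mock 53.2 of the 69.1 FPKM of Lig1 belonged to an assembled transcript of 1121 nt covering the 3′ part of the gene. On the RefSeq transcript the ratios were -0.39 and -0.62, and over a fixed gene length -1.49 and -1.44. The RPA complex, which coats single-stranded DNA, was again uneven. Rpa2 (12.9, 14.0 and 43.9 FPKM) and Rpa3 (38.4, 35.7 and 87.2 FPKM) were called lower in both libraries, with ratios of -1.69 and -1.58 for Rpa2 and -1.16 and -1.26 for Rpa3. Rpa1, the large subunit, had 77.1, 73.2 and 89.7 FPKM and the smallest differences of this role, at -0.22 ± 0.04 and -0.29 ± 0.04. Of these Rpa1 levels, 40.9 and 28.2 FPKM sat on assembled transcripts in the library labelled shKSRP and the BMP2 library and none did in mock. On the RefSeq transcript alone its ratio was -1.29 in the library labelled shKSRP.

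Nucleotide supply genes were lower in 3 of 5 cases in both libraries, with medians of -1.59 in the library labelled shKSRP, with -1.01 in the BMP2 library. Tk1, which salvages thymidine, had 42.0 ± 1.39, 36.2 ± 1.37 and 208 ± 4.23 FPKM in the library labelled shKSRP, the BMP2 library and the mock library (ratios of -2.28 ± 0.06 and -2.49 ± 0.06). An assembled transcript carried 130 FPKM of its mock level, and counting RefSeq transcripts only gave ratios of -0.87, short of the call, and -1.08. Tyms, which makes thymidylate anew, had 23.5 ± 1.31, 25.2 ± 1.46 and 79.7 ± 2.54 FPKM (ratios of -1.72 ± 0.09 and -1.62 ± 0.09). Ribonucleotide reductase, which makes deoxynucleotides, differed between its subunits, in an order that turned on RefSeq transcripts alone. Rrm2, the small subunit that is made anew in S phase, had 107 ± 1.71, 160 ± 2.23 and 323 ± 3.75 FPKM (ratios of -1.59 ± 0.03 and -1.01 ± 0.03). Rrm1, the large subunit, had 46.5 ± 1.23, 41.1 ± 1.11 and 55.3 ± 0.969 FPKM (ratios of -0.25 ± 0.04 and -0.42 ± 0.05), and Dut, which removes dUTP, had 44.4 ± 3.43, 37.8 ± 2.60 and 72.4 ± 2.97 FPKM (ratios of -0.69 ± 0.12 and -0.92 ± 0.11). Neither was called, but on RefSeq transcripts alone both passed 2-fold in both libraries, at -1.73 and -1.37 for Rrm1 and -1.89 and -2.17 for Dut. The BMP2 call of Rrm2 lay at the threshold and was lost on RefSeq transcripts alone (-0.53) and over a fixed gene length (-0.97). In the library labelled shKSRP Rrm2 was at -1.11 on RefSeq transcripts alone, so Rrm1 had the lower ratio in both libraries under that definition.

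S-phase regulators and chromatin assembly genes were lower in 10 of 13 cases in each library, with medians of -1.30 in the library labelled shKSRP, with -1.38 in the BMP2 library. Gmnn encodes geminin, which blocks Cdt1 once S phase has begun. It had 11.5 ± 0.890, 19.2 ± 1.52 and 59.5 ± 2.12 FPKM in the library labelled shKSRP, the BMP2 library and the mock library (ratios of -2.27 ± 0.11 and -1.58 ± 0.12). The kinase Cdc7 and its activator Dbf4, which fire licensed origins, had 2.63, 2.84 and 12.7 FPKM and 9.74, 13.5 and 36.5 FPKM. Their ratios were -1.91 ± 0.13 and -1.83 ± 0.14 for Cdc7, and -1.80 and -1.38 for Dbf4. On RefSeq transcripts alone the Cdc7 calls were lost, at -0.35 and -0.32. Slbp, which binds the stem-loop of histone mRNAs, had 22.5, 32.8 and 77.0 FPKM (ratios of -1.73 and -1.21).

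Both subunits of chromatin assembly factor 1, which deposits histones behind the fork, were called lower in both libraries. Chaf1b had 7.97 ± 0.503, 6.81 ± 0.494 and 26.3 ± 0.958 FPKM in the library labelled shKSRP, the BMP2 library and the mock library (ratios of -1.61 ± 0.10 and -1.81 ± 0.10), and Chaf1a had 10.2, 9.59 and 26.6 FPKM (ratios of -1.30 and -1.38). Both rest on RefSeq transcripts alone in every library. Ccne1, a cyclin that activates Cdk2 at the start of S phase, had 11.4, 9.87 and 28.8 FPKM (ratios of -1.26 and -1.45). Its close relative Ccne2 was listed at 0 in the library labelled shKSRP and the BMP2 library, against 8.91 ± 0.494 FPKM in mock. Ccne2 overlaps Ints8 over 1599 nt of exons on the opposite strand, and Ints8, a subunit of the Integrator complex, had 20.5, 26.0 and 15.2 FPKM. Cdk2 itself had 10.4, 17.8 and 24.7 FPKM, which passed the call in the library labelled shKSRP (-1.18 ± 0.09) and not in the BMP2 library (-0.45 ± 0.09). In the BMP2 library 10.4 FPKM of Cdk2 sat on assembled transcripts, and on RefSeq transcripts alone both passed, at -1.18 and, in the BMP2 library, -1.60.

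Uhrf1 and Dnmt1, which together copy DNA methylation onto the new strand, parted in the library labelled shKSRP. Uhrf1 had 17.4 ± 0.653, 12.4 ± 0.598 and 40.5 ± 1.05 FPKM in the library labelled shKSRP, the BMP2 library and the mock library, with ratios of -1.18 ± 0.06 and -1.63 ± 0.07. Dnmt1 had 16.1 ± 0.502, 12.6 ± 0.682 and 17.1 ± 0.520 FPKM, with ratios of -0.08 ± 0.06 and -0.41 ± 0.08. The shKSRP-labelled ratio of Dnmt1 was the closest to 0 of all 53 genes, and it rests on RefSeq transcripts alone in both libraries; at the same sum of FPKM it was 0.24. In the BMP2 library 7.35 FPKM of Dnmt1 sat on assembled transcripts, and on RefSeq transcripts alone its ratio was -1.53, past 2-fold. Within Dnmt1 the levels of its RefSeq transcripts changed places: NM_001199431 had 10.1 FPKM in the library labelled shKSRP and 3.63 FPKM in mock, and NM_001199432 had 6.05 FPKM and 13.5 FPKM. E2f1, an activating E2F factor, had 20.1 ± 0.818, 18.1 ± 0.715 and 29.1 ± 1.01 FPKM and was called in neither library, with ratios of -0.52 ± 0.07 and -0.66 ± 0.07. On its RefSeq transcript alone the ratio in the library labelled shKSRP was -1.67. Topbp1, which helps Cdc45 onto origins, had 10.2, 7.77 and 16.9 FPKM, with ratios of -0.67 ± 0.06 and -1.03 ± 0.06, the second of them just past the call.

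**Figure D3:**
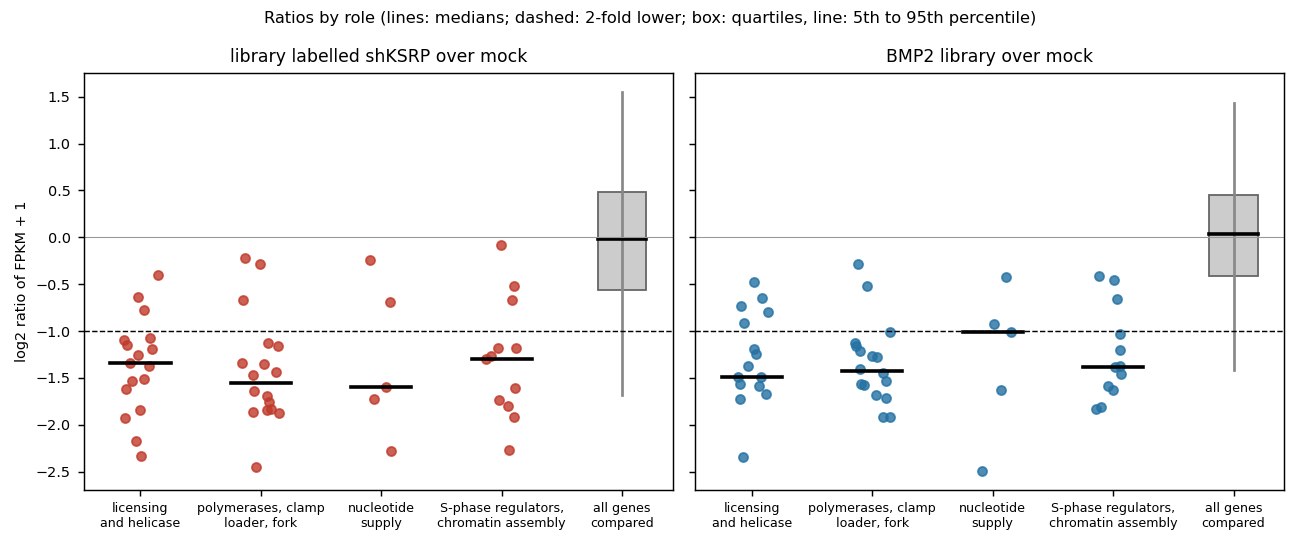
Log2 ratios of FPKM + 1 to mock by role, for the library labelled shKSRP on the left and the BMP2 library on the right; each point is a gene above 0 in both libraries compared, black lines are medians over all compared genes of the role, and the grey box and line give the quartiles and the 5th to 95th percentiles of all 11462 compared genes. All points lie below 0, and role medians run from -1.59 to -1.01.

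The genes not called lower in the library labelled shKSRP were 11: Gins3, Gins4, Orc2, Pole, Pold1, Rpa1, Rrm1, Dut, E2f1, Topbp1 and Dnmt1. In the BMP2 library they were 12: Mcm4, Gins3, Gins4, Orc2, Orc6, Pole, Rpa1, Rrm1, Dut, E2f1, Cdk2 and Dnmt1. All of them had ratios below 0 on the unscaled values, the closest to 0 being -0.08 for Dnmt1 in the library labelled shKSRP and -0.29 for Rpa1 in the BMP2 library. At the same sum of FPKM, Rpa1 (0.13), Dnmt1 (0.24), Rrm1 (0.09) and Pole (0.01) lay above 0 in the library labelled shKSRP. Just past the threshold in the library labelled shKSRP lay Orc1 at -1.07 and Mcm2 at -1.10, and nearest short of it Gins4 at -0.77. In the BMP2 library Rrm2 and Rfc2 (both -1.01) and Topbp1 (-1.03) lay just past it, and Dut and Mcm4 (both -0.92) just short of it.

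How the fragments of a gene were assigned moved many single values and few of the counts. Assembled transcripts carried 23.4% of the summed FPKM of the 54 genes in the library labelled shKSRP, 19.9% in the BMP2 library and 23.7% in the mock library. Of the 21 assembled transcripts of these genes in mock, 10 were shorter than 50% of the longest RefSeq transcript of their gene, against 4 of 29 in the library labelled shKSRP, with 8 of 30 in the BMP2 library. With fragments taken over a fixed gene length, 39 genes were lower in the library labelled shKSRP, with 39 in the BMP2 library, against 11.0% and 7.30% of all genes. With RefSeq transcripts alone the counts were 39 and 39 as well, against 14.0% and 11.3% of all genes. Lower under all 3 definitions were 33 genes in the library labelled shKSRP, with 31 in the BMP2 library. Both counts include Pold2 and Ccne2, which are listed at 0. The BMP2 count also includes Cdc45 and Orc1, listed at 0 there, and the other count Gins2, whose RefSeq transcript is at 0. The share of all compared genes lower under all 3 was not computed.

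**Figure D4:**
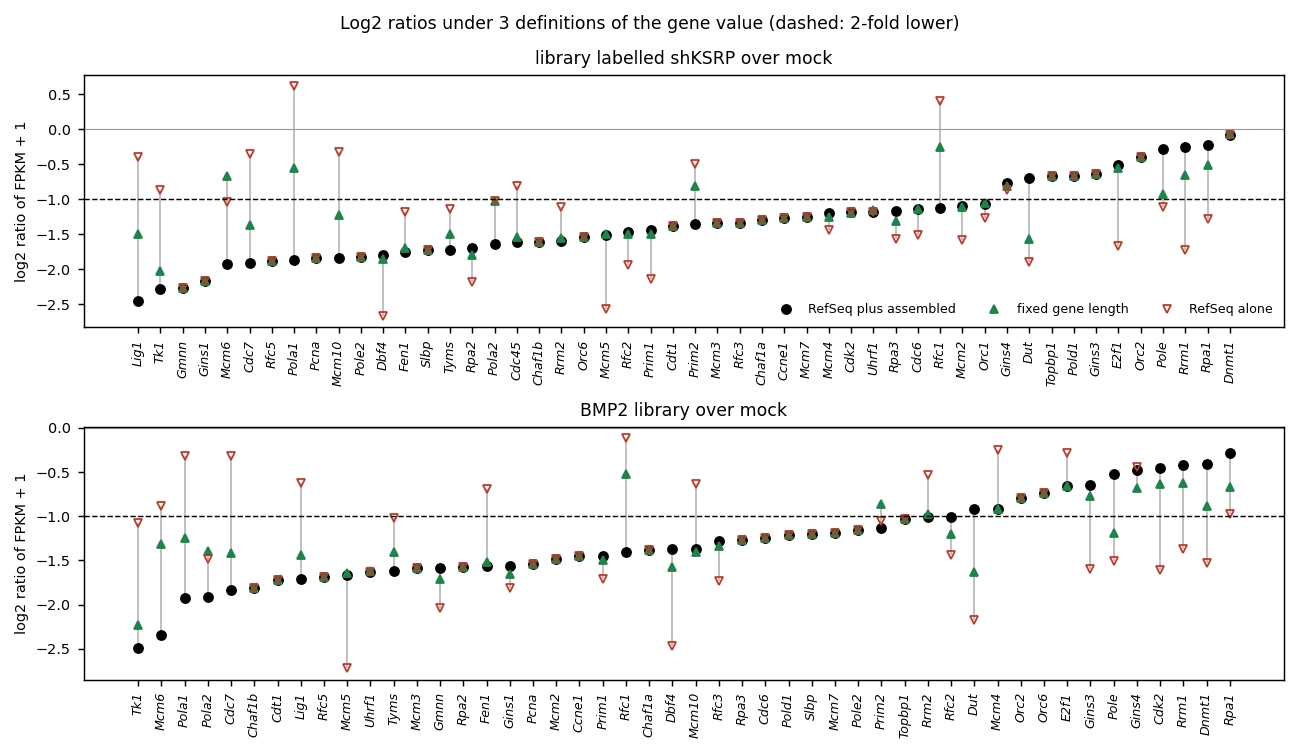
Log2 ratios of FPKM + 1 to mock of each gene under 3 definitions of its value, for the library labelled shKSRP above and the BMP2 library below; filled circles sum RefSeq and assembled transcripts, filled triangles use a fixed gene length and open triangles RefSeq transcripts alone. Genes listed at 0 in a library under any of these are not drawn; Rfc1 and Pola1 in the upper panel are the only open triangles above 0, at 0.40 and 0.62.

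The genes listed at 0 in some library were Rfc4, Pold2, Ccne2, Cdc45 and Orc1. Of the 6 replication genes with exons that overlap a gene on the opposite strand (Gins2, Rfc4, Pold2, Lig1, Tk1 and Ccne2), 3 were listed at 0 in at least 1 library, against 2 of the 48 without such an overlap. Among all genes at 5 FPKM or more in some library the shares were 118 of 911 with an overlap (13.0%) and 337 of 8340 without (4.04%). No source used here says whether the libraries keep strand, so reads of overlapping genes may not have been told apart. Whether this bears on the listings at 0 was not tested, and a 0 is not read as absence. Leaving out every gene listed at 0 in any library, an alternative added after seeing the data, 38 of 49 genes were lower in the library labelled shKSRP, with 37 of 49 in the BMP2 library, against 10.85% and 7.17% of all such genes.

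Gene length moved with the ratios over all genes. Compared genes shorter than 2000 nt had median ratios to mock of -0.42 in the library labelled shKSRP, with -0.22 in the BMP2 library, while genes of 4000 nt or more had medians of 0.36 and 0.24. The longest RefSeq transcript of the replication genes had a median of 2418 nt, against 2809 nt for all compared genes. The 19 replication genes shorter than 2000 nt had medians of -1.69 and -1.45, and the longer ones -1.22 and -1.38. With the length trend of all genes taken out, 41 genes were lower than mock in the library labelled shKSRP, with 39 in the BMP2 library, against 11.2% and 8.97% of all genes.

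Set directly against each other, the library labelled shKSRP and the BMP2 library were close for most replication genes. None of the 53 was called lower, against 8.66% of all compared genes, and 2 were called higher, against 6.06%. These 2 were Cdc45 and Orc1, both listed at 0 in the BMP2 library. The median log2 ratio of the library labelled shKSRP to the BMP2 library was 0.01, against -0.02 over all genes. A call that misses the threshold does not show that the levels were the same. At 1.5-fold, 7 of the 53 genes were lower in the library labelled shKSRP than in the BMP2 library, against 17.55% of all compared genes. They were Gins2 (-0.85 ± 0.08), Orc6 (-0.80 ± 0.06), Lig1 (-0.74 ± 0.11), Cdk2 (-0.73 ± 0.10), Gmnn (-0.69 ± 0.15), Pole2 (-0.67 ± 0.13) and Gins1 (-0.61 ± 0.21). On RefSeq transcripts alone the direction turned for Lig1 (0.23) and Cdk2 (0.43) and Gmnn was at -0.23, and over a fixed gene length Lig1 was at -0.06. None above 0 in both libraries was higher at 1.5-fold.

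By role, Gins2 and Orc6 had the lowest ratios of the library labelled shKSRP to the BMP2 library among licensing genes, and Mcm6 (0.42 ± 0.05) and Orc2 (0.40 ± 0.07) the highest. The other MCM ring genes with Cdc6 and Cdt1 ran from -0.27 for Mcm4 to 0.39 for Mcm2. Among polymerase and fork genes Lig1, with the limit just given, and Pole2 were lowest, and Pold1 (0.55 ± 0.10) and Rfc1 (0.28 ± 0.07) highest. Among nucleotide supply genes Rrm2 (-0.58 ± 0.03) and Tyms (-0.09 ± 0.11) were lowest, and Dut (0.23 ± 0.15) and Tk1 (0.21 ± 0.07) highest. Among the regulators Cdk2 and Gmnn were lowest, and Uhrf1 (0.45 ± 0.08) and Topbp1 (0.36 ± 0.07) highest. On RefSeq transcripts alone the direction of Mcm6 (-0.15) and Mcm2 (-0.10) turned, and Mcm4 (-1.20) and E2f1 (-1.39) were lower and Dnmt1 (1.45) was higher in the library labelled shKSRP than in the BMP2 library.

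**Figure D5:**
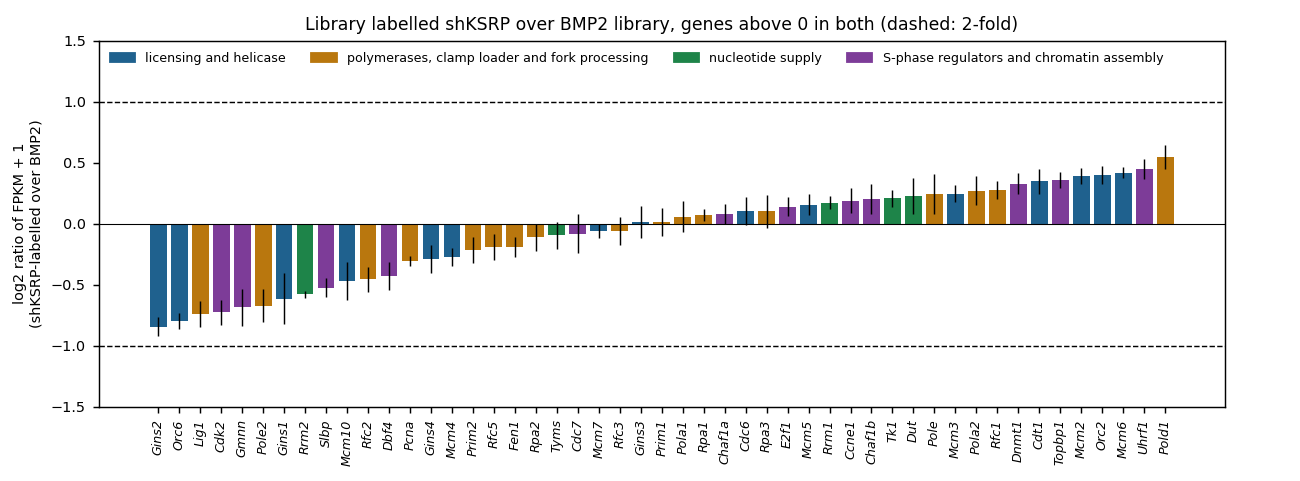
Log2 ratios of FPKM + 1 of the library labelled shKSRP to the BMP2 library for the 49 genes above 0 in both, in rising order and coloured by role; error bars are propagated interval half-widths. The bars run from -0.85 for Gins2 to 0.55 for Pold1, and none reaches the dashed 2-fold lines.

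A further 66 replication and S-phase genes, listed by function as a wider set around the 54, had medians below 0 in both libraries. The difference between these genes and the 54 was not tested. In the library labelled shKSRP 24 were lower than mock and 1 higher, against 12.9% and 11.0% of all genes, with a median of -0.81. In the BMP2 library 31 were lower and 1 higher, against 8.94% and 9.21% of all genes, with a median of -0.95. Among those above 0, the lowest ratios in the library labelled shKSRP were those of Fbxo5, an inhibitor of the anaphase-promoting complex (8.08 ± 0.523 FPKM against 40.6 ± 1.44 FPKM in mock, -2.20), the histone chaperone gene Nap1l1, which shares its locus (40.1 against 178 FPKM, -2.12), and the histone chaperone gene Asf1b, likewise at a shared locus (19.8 against 85.2 FPKM, -2.05). The highest were Mtbp (90.5 against 18.4 ± 0.614 FPKM, 2.23), a partner of the origin-firing factor treslin in human cells, Samhd1 (57.6 against 28.8 FPKM, 0.97), which breaks down deoxynucleotides, and Cul4a (43.9 against 24.9 FPKM, 0.80), part of the ubiquitin ligase that removes Cdt1. Low ratios in the BMP2 library were those of the PCNA-binding factor gene Pclaf (11.8 against 86.4 FPKM, -2.77) and the dCTP pyrophosphatase gene Dctpp1 (21.4 against 95.4 FPKM, -2.11). The highest were Samhd1 (164 ± 2.05 against 28.8 ± 0.786 FPKM, 2.47), the histone chaperone gene Supt16 (43.9 against 27.2 FPKM, 0.67) and the phosphatase gene Cdc25a (5.71 against 3.30 FPKM, 0.64).

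Between the library labelled shKSRP and the BMP2 library, 2 of these 66 were lower and 5 higher, against 8.66% and 6.06% of all genes. Of the higher ones, 2 rested on a 0 in the BMP2 library. Mtbp was highest (90.5 FPKM in the library labelled shKSRP against 8.96 ± 0.434 FPKM in the BMP2 library, 3.20), followed by Pclaf (38.8 against 11.8 FPKM, 1.64) and Dscc1, a subunit of the alternative clamp loader (28.1 against 11.7 FPKM, 1.19). The lowest were Nap1l1 (40.1 against 119 FPKM, -1.55), Samhd1 (57.6 against 164 FPKM, -1.49) and Supt16 (22.3 against 43.9 FPKM, -0.95). Rnaseh2a, a subunit of the RNase that removes ribonucleotides from DNA, was listed at 0 in the library labelled shKSRP and the BMP2 library against 57.5 FPKM in mock, and Donson, a replication fork factor, likewise against 21.2 FPKM.

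Genes of mitosis, the next stage of the cycle, were lower than mock in 29 of 33 cases in the library labelled shKSRP (median -1.54). In the BMP2 library 32 of 33 were lower (median -1.69). Of all compared genes 12.9% and 8.94% were lower. The mitosis genes had a median of 0.15 in the library labelled shKSRP against the BMP2 library. Of them 1 of 33 was called lower, against 8.66% of all compared genes. The difference between the mitosis genes and the 54 replication genes was not tested.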

How the data were processed

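RNA was taken up on oligo(dT) beads and sequenced on an Illumina HiSeq 2000, per the labels' protocols, in 3 libraries with 1 per group. The authors deposited, for each library, a Cufflinks transcript file whose attributes hold FPKM with a 95% interval, and a score per transcript, also deposited, which was not used. Per the submitters' processing notes, TopHat 1.4.1, Bowtie 0.12.7, Cufflinks 1.3.0, CASAVA 1.8 and the mm9 build were used, with no role or setting stated. Each file has its own set of assembled transcripts.

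Gene FPKM was the sum over RefSeq transcripts and over assembled transcripts of the same locus. Where a locus held several genes, the one with most exon overlap received the assembled transcript. Of 28222 accessions, 27563 were named through RefSeq (GRCm38.p6). Genes with FPKM of 1 or more in at least 1 library and a transcript of 300 nt or more were compared, by log2((FPKM + 1)/(FPKM + 1)) called at 1. The files hold no counts; fragments per library were estimated from interval widths of transcripts of 2000 nt and 5 FPKM or more. Intervals cover counting and assignment error only.

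The fixed gene length alternative turns each transcript's FPKM into fragments by its length and divides by the longest RefSeq transcript. Python 3.11.15, numpy 2.4.6 and pandas 2.3.3 were used. Calls were tried on data simulated from the mock values with interval error alone, with known changes larger than the 2-fold call. The simulation held no length trend, assignment error or spread between cultures, so removal of a length trend was not tested. Members and lists were chosen with earlier results of these data known. All 54 genes are accounted for; by role the 2 lowest and 2 highest ratios of each comparison are given in full and genes not called are named, and of the 66 further genes the 3 lowest and 3 highest, except that 1 result is not reported here. No replicate check exists, and the alternatives are given in the closing section.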

Additional observations from a re-analysis of the deposited data

How the results depend on the processing

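Counts of replication genes lower than mock kept within 1.5 times of the reported ones under every alternative tried. At the 2-fold call they ran from 31 to 42 in the library labelled shKSRP, with 33 to 41 in the BMP2 library. At the same sum of FPKM, the 31 and 33 stood against 8.24% and 6.39% of all compared genes. Called at 1.5-fold instead, 47 were lower in each, against 24.2% and 18.4% of all compared genes. The median log2 ratio of the library labelled shKSRP to mock moved to -1.21 with a pseudocount of 5, -1.30 with RefSeq transcripts alone, -1.34 with the most abundant RefSeq transcript, -1.31 with a fixed gene length and -1.10 at the same sum of FPKM. That of the BMP2 library to mock moved to -1.51 with a pseudocount of 0.1, -1.17 with a pseudocount of 5 and -1.15 at the same sum of FPKM. For the library labelled shKSRP against the BMP2 library, genes called lower came to 2 with RefSeq transcripts alone, against 10.3% of all compared genes. They came to 2 with the most abundant RefSeq transcript, against 10.2%, and 7 at 1.5-fold, against 17.55%. Genes called higher came to 1 with a pseudocount of 5, against 2.92% of all compared genes. Among genes above 0 in all 3 libraries they came to 0, against 4.61%. With either RefSeq setting, Rfc1 (0.40) and Pola1 (0.62) turned to higher than mock in the library labelled shKSRP. The cause of these moves was not tested. The call of lower held under every alternative that gave a value for 21 genes (library labelled shKSRP) and 22 genes (BMP2 library). Both counts include Pold2 and Ccne2, and the BMP2 count also Cdc45 and Orc1, whose calls rest on a listing at 0. The count of the library labelled shKSRP also includes Gins2, whose RefSeq transcript is listed at 0 there. Alternatives that only change which genes are compared leave the ratio of a gene as it was, so they could not end a call. The matching share of all compared genes was not computed. No paired analysis was possible because each group has 1 library. The intervals are narrow, but with no replicates no difference is separated from the spread between cultures, and fragment assignment also moved single values.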

Other observations

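Among the mitosis genes, which were chosen for mention after their values were seen, the largest differences from mock in the library labelled shKSRP were those of Ube2c, Cdk1 and Cenpa. Ube2c, an enzyme that tags cyclins for destruction, had 37.7 FPKM in the library labelled shKSRP, 42.5 FPKM in the BMP2 library and 231 FPKM in the mock library. The Ube2c locus is shared with another gene. Cdk1, the kinase of mitotic entry, had 34.8, 68.6 and 214 FPKM in the same order. Cenpa, the histone variant of centromeres, had 18.1, 49.5 and 113 FPKM, and was the only gene of the 33 called lower in the library labelled shKSRP than in the BMP2 library, at -1.40. Top2a, which untangles replicated DNA, had 39.3, 23.7 and 75.2 FPKM. The proliferation marker Mki67 had 10.5, 8.69 and 25.2 FPKM.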
